A study of Monodelphis domestica and Mus musculus with 2 samples.

Results

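The tissue described here is the part of the opossum brain section that lay outside the outlined regions of primary visual cortex (V1). Its members are the segmented cells that carry no V1 region label, kept when at least 50 genes and 100 unique molecular identifiers (UMIs) were found in them. They numbered 74531, which is 93.9% of the 79337 opossum cells that passed the same filter, and 1018 further unlabelled cells were left out by it. The cells inside V1 numbered 4806, in 3 regions of 1855, 1739 and 1212 cells.

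Stereo-seq captures polyadenylated RNA from a section on a chip of barcoded spots, and UMIs are then summed over cells outlined on an image of the same section. The opossum (Monodelphis domestica, a small marsupial) was 1 male adult of about 6 months, with no treatment stated, and a single 10 µm section of its brain was measured. Coronal slices 2 mm thick were taken on both sides of a cut through the superior colliculus and trimmed about 3 mm from the midline and about 4 mm below the top of the cortex, so that midbrain and other deep tissue lay in the block together with cortex. The RNA integrity number of the block was 7.1.

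Cells outside and inside V1 therefore share 1 animal and 1 section and were told apart by position alone. The V1 regions were outlined by the authors between the upper edge of layer 2/3 and the lower edge of layer 6, which places layer 1 and white matter outside them by construction. They are columns picked by hand within V1, so V1 that was not outlined counts as outside here. Outside V1 therefore means outside these regions, and whether tissue pieces without a region also hold V1 is not labelled. V1 was recognised partly by its cell types, so the genes that mark those types are not independent of the outline. The deposited labels call the tissue cortex, and 0 of the cells outside V1 carry a cell class or subclass, so what they contain was read from genes alone. With 1 animal no test of outside against inside is possible, no p-value was computed, and the intervals below are exact 95% intervals that cover counting error only.

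V1 is the cortical area that receives visual input from the thalamus, and its excitatory neurons are arranged in layers, each with its own transcription factors. The superior colliculus is the visual centre of the midbrain roof and gets its input straight from the retina. Neurons of the midbrain, thalamus and habenula are specified by transcription factors such as the POU4F, IRX and GATA families and LHX9. Excitatory neurons of the cortex generally do not use these.

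The section held 4 separate pieces of tissue. Piece 1 at the lower left held V1 region 3 and 23679 cells outside V1, piece 2 at the lower right held V1 regions 1 and 2 and 18822 cells outside, and pieces 3 and 4 above them held no V1 region and 20758 and 11271 cells. The median cell outside V1 had 850 UMIs (interquartile range 474 to 1408) and 558 genes, and the median cell inside had 1326 UMIs (812 to 1932) and 821.5 genes. Medians were 922, 794, 849.5 and 772 UMIs in pieces 1 to 4, all lower than the 1358, 1503 and 1048 of the V1 regions. Levels are therefore given as UMIs of a gene per 10000 UMIs of all genes in the same tissue, with 77568500 UMIs outside and 6933475 inside. A level is a share of summed RNA, so more cells of a type and more RNA per cell cannot be told apart.

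**Figure D1:**
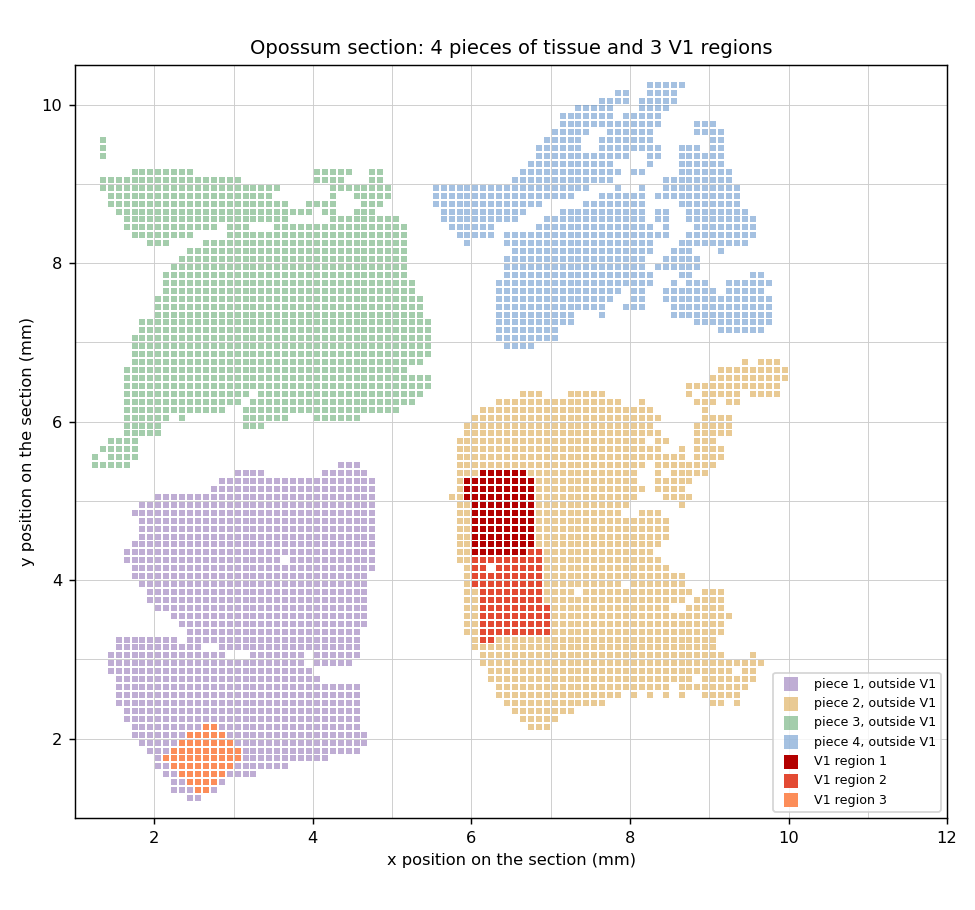
Squares of 100 µm that hold at least 1 cell, placed by x and y position in mm on the opossum section, with lines every 1 mm. The colours are the 4 pieces of tissue outside V1 and the 3 V1 regions; regions 1 and 2 lie in piece 2, region 3 lies in piece 1, and pieces 3 and 4 hold no V1 region.

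A gene was called higher or lower outside V1 when it had at least 1000 UMIs in all, differed at least 2-fold in level between the summed tissue outside and the summed V1 regions, and lay on the same side of each V1 region. Of 9939 genes tested, 425 were higher outside V1 (4.28%) and 111 were lower (1.12%). The median log2 ratio over all genes tested was 0.06, with quartiles of −0.14 and 0.29. The interval of the ratio lay wholly above 2 for 211 of the 425 higher genes and wholly below 0.5 for 74 of the 111 lower genes. At the threshold, ELN and S100A11 were called with ratios that round to 2.00, while SMC2 and NCKAP5, at 1.999, were not. In all 4 pieces of tissue, 407 of the 425 were above the summed V1 level. Below it in all 4 were 108 of the 111. The genes were chosen on the sum of these pieces, so this agreement follows in part from the choice. At 0.5 times V1 or less were 107, 13, 110 and 106 of the 111 lower genes in pieces 1 to 4. The count of lower genes depended on which tissue entered, with 256 without piece 2, 61 without piece 3 and 48 in the pieces that hold a V1 region alone.

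The 25 genes with a symbol and the largest ratios included many transcription factors of midbrain, thalamic and habenular neurons. SHOX2, a homeobox factor of thalamic and midbrain neurons, had levels of 0.168, 0.0211, 0.141 and 0.247 in pieces 1 to 4 and of 0.0109, 0.00356 and 0.00728 in V1 regions 1 to 3. Its level outside was 18.6 times that inside (interval 7.95 to 57.4), with only 5 UMIs inside. POU4F2, a POU factor of retinal ganglion cells and of the superior colliculus, had 0.284, 0.0226, 0.327 and 0.144 in pieces 1 to 4, against 0.0218, 0.0107 and 0 in the V1 regions, a ratio of 16.1 (8.44 to 35.2). Piece 2 barely exceeded V1 region 1 for this gene, and the other pieces were well above every V1 region.

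IRX3, IRX2 and IRX1, Iroquois homeobox factors of the diencephalon and midbrain, were 16.1, 11.4 and 5.12 times higher outside. OTX2, a homeobox factor that patterns the forebrain and midbrain and stays on in the choroid plexus, was 12.0 times higher (7.0 to 22.6) and highest in piece 4, at 0.477. SOX14, GATA3, GATA2 and TAL1, factors of GABAergic neurons of the midbrain and thalamus, were 10.4, 7.88, 4.99 and 7.86 times higher. LHX9, a LIM homeobox factor, and TFAP2B, an AP-2 factor of collicular neurons, were 7.88 and 7.99 times higher. These genes are rare in V1: the 25 genes had between 5 and 144 UMIs in all of it, which is why their intervals are wide.

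The list also held genes that encode no transcription factor. CALB2 encodes calretinin, a calcium-binding protein, and its levels were 1.28, 0.397, 0.975 and 1.34 in pieces 1 to 4 and 0.200, 0.153 and 0.335 in the V1 regions, a ratio of 4.72 (4.00 to 5.61). SNCG, gamma-synuclein, was 7.65 times higher and NPY1R, a receptor of neuropeptide Y, was 4.55 times higher. PRKACB, a catalytic subunit of protein kinase A, was 7.58 times higher, with 0.818 in piece 3 and 0.0584 in piece 2; whether UMIs of a neighbouring gene enter this value through the lengthened gene models was not tested. CTXN2, IGF2BP3, TMSB10, SEMA3F, TMCC3, PLCH1, SYT9 and the transcription factors PRRX1 and POU4F1 complete the list, with ratios from 4.45 for PLCH1 to 12.7 for POU4F1.

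The pieces did not contribute equally. Piece 2 had the lowest level of the 4 pieces for 22 of these 25 genes, and it did not exceed every V1 region for 5 of them, whereas pieces 1, 3 and 4 exceeded every V1 region for all 25. Over all 425 higher genes, the level was at least 2 times that of V1 for 345 in piece 1, 165 in piece 2, 407 in piece 3 and 370 in piece 4. Piece 3, which held no V1 region, had the highest level of the 4 for 275 of the 425. The genes were chosen on the sum of these pieces, so these counts follow in part from the choice. The same counts over all genes tested are not given here.

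**Figure D2:**
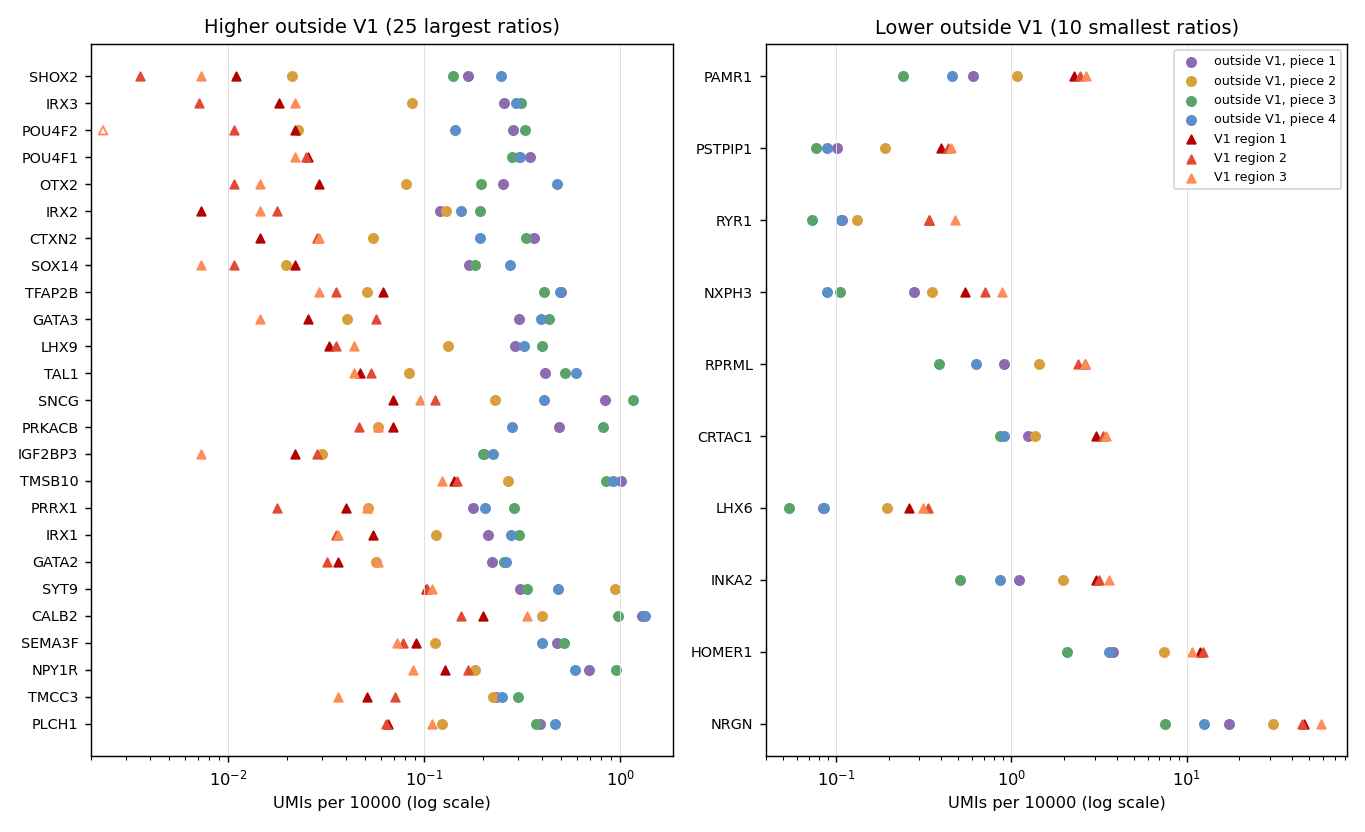
Levels in UMIs per 10000 on a log axis for the 25 genes with the largest and the 10 with the smallest ratios, with circles for the tissue outside V1 in each of the 4 pieces and triangles for the 3 V1 regions. The open triangle stands for a level of 0 (POU4F2 in V1 region 3), and circles of piece 2 lie nearest to the triangles for most genes.

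Place on the section was read from 61 square tiles of 1 mm side that held at least 200 cells outside V1, with 218 to 2915 cells each. The higher genes were more concentrated than genes in general. The median ratio of highest to median tile was 4.02 for the 425 and 2.04 for all genes tested. The 3 tiles richest in UMIs of a gene held a median of 16.8% and 13.7% of them, respectively. The 425 were chosen on their level in this same tissue, so part of this contrast may follow from the choice. Grouped by their profile over tiles, 300 of the 425 genes fell into a single broad group whose median correlation among its members was only 0.40 across tiles, and the other 7 groups held 3 to 39 genes each.

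POU4F2 reached 0.960 (0.842 to 1.09) in the tile at x 2 to 3 mm and y 6 to 7 mm of piece 3 and 0.949 in the tile at x 3 to 4 mm and y 4 to 5 mm of piece 1, whereas no tile of piece 2 exceeded 0.0513. These tiles lay on either side of the gap between pieces 1 and 3, in the lower part of piece 3 and the upper part of piece 1. PRKACB and CTXN2 also had their highest tiles there, at x 3 to 4 mm and y 6 to 7 mm of piece 3 and at x 3 to 4 mm and y 5 to 6 mm of piece 1.

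The most confined group had only 4 genes, and CARTPT, UCN and SPP1 are those with a symbol. CARTPT encodes the peptide CART, UCN encodes urocortin, and both peptides are classic products of the centrally projecting Edinger–Westphal nucleus in the midline midbrain. SPP1 encodes osteopontin, which large motor and sensory neurons make. CARTPT had levels of 0.531, 0.203, 2.59 and 0.272 in pieces 1 to 4 and of 0.331, 0.278 and 0.233 in the V1 regions, so only pieces 1 and 3 exceeded every V1 region.

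In the tile at x 5 to 6 mm and y 6 to 7 mm of piece 3, which held 669 cells, CARTPT reached 39.3 (37.8 to 40.9) against a median over tiles of 0.271. UCN reached 8.12 in the same tile against a median of 0.0308, and SPP1 reached 5.25 against 0.0495. The 3 richest tiles held 72.9% of the CARTPT UMIs, 77.7% of the UCN UMIs and 60.4% of the SPP1 UMIs. SNCG was also highest there, at 3.86, and SLC18A2, the vesicular monoamine transporter, reached 0.712 in that tile. The tile at x 4 to 5 mm and y 5 to 6 mm, across the gap in piece 1, held the highest CARTPT level outside piece 3, at 7.39.

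A second compact site lay at the right edge of piece 2, in the tile at x 9 to 10 mm and y 5 to 6 mm (375 cells) and the tile above it (1168 cells). SYT9, a synaptotagmin of secretory vesicles, had levels of 0.307, 0.942, 0.335 and 0.483 in pieces 1 to 4 and of 0.102, 0.103 and 0.109 in the V1 regions, and it was the single gene of the 25 that was highest in piece 2. It reached 15.9 (14.8 to 17.2) in the lower of these tiles against a median over tiles of 0.276. POU4F1, the POU factor of the medial habenula and of sensory neurons, reached 4.45 (3.84 to 5.13) in the same tile and at most 0.863, 0.569 and 0.614 in any tile of pieces 1, 3 and 4.

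Other habenula genes and genes of acetylcholine synthesis and release also had their highest tile at this site, but most had fewer than 1000 UMIs and are given as levels only. GPR151, a receptor of habenular neurons, was at 0.0151, 0.295, 0.0178 and 0.0197 in pieces 1 to 4, and CHRNA3, a nicotinic receptor subunit, was at 0.0302, 0.170, 0.0230 and 0.0296. CHAT, which makes acetylcholine, reached 2.96 in the tile at y 5 to 6 mm, SLC5A7, the choline transporter, reached 3.27, and SLC18A3, which loads acetylcholine into vesicles, reached 3.84. SLC18A3 had enough UMIs to be tested and was not called, with 0.138 outside and 0.144 inside (ratio 0.955, 0.777 to 1.18), although its highest tile was far above its median tile of 0.0375.

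Several thalamic genes had their highest tile elsewhere, at x 9 to 10 mm and y 9 to 10 mm of piece 4, which held only 314 cells. TCF7L2, a Wnt pathway factor and standard marker of thalamic neurons, had levels of 1.59, 1.09, 2.26 and 2.75 in pieces 1 to 4 and of 0.450, 0.417 and 0.386 in the V1 regions, a ratio of 4.27 (3.81 to 4.81). It reached 12.3 (10.9 to 13.8) in that tile, and the highest tiles of pieces 1, 2 and 3 had 4.41, 6.85 and 4.78. SHOX2, CALB2, SLC17A6 (the vesicular glutamate transporter of subcortical neurons), PRKCD and NTNG1 had their highest tile in the same place, but LEF1, a Wnt pathway factor like TCF7L2, had its own, at 2.37, at x 1 to 2 mm and y 4 to 5 mm of piece 1, and RORA, a nuclear receptor, at x 5 to 6 mm and y 5 to 6 mm of piece 2. SLC17A6 itself was not called, at 2.58 outside and 1.46 inside (ratio 1.76, 1.66 to 1.88), and PRKCD and NTNG1 had ratios of 1.41 and 1.79. Of 7 thalamic genes tested, SHOX2, TCF7L2 and LEF1 were higher, 4 were not called, and the median log2 ratio was 0.84.

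**Figure D3:**
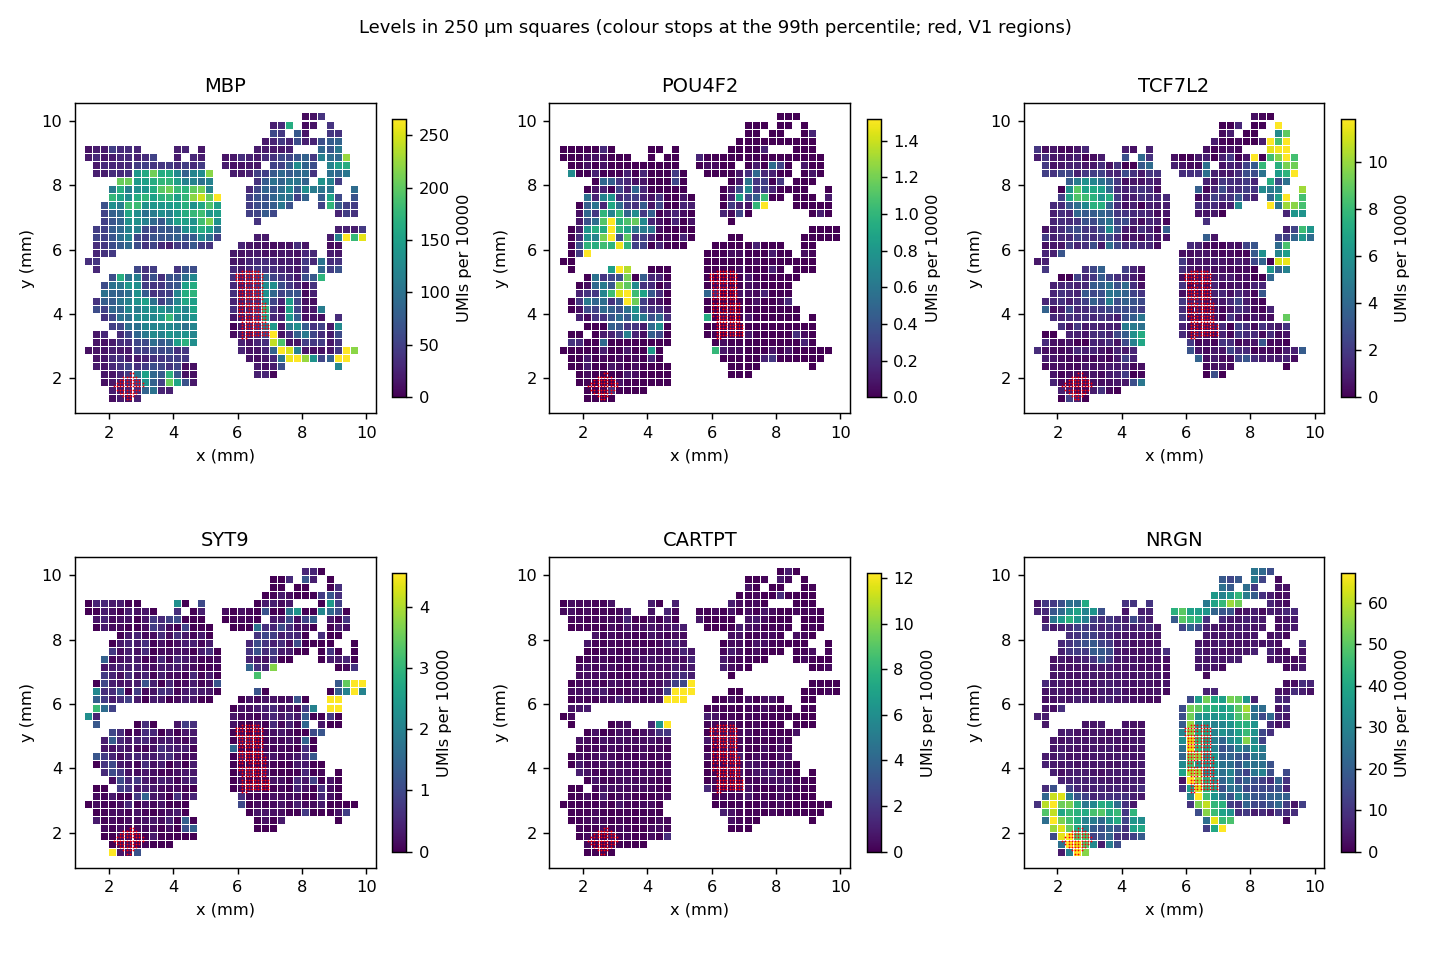
Levels of 6 genes in UMIs per 10000 in 716 squares of 250 µm with at least 5000 UMIs, by x and y position in mm, with the V1 regions dotted in red and the colour scale of each gene stopped at its 99th percentile. MBP fills much of the tissue outside V1, and POU4F2 is high in facing parts of pieces 1 and 3. TCF7L2 is high at the right of piece 4 and also in part of piece 3. SYT9 is high at the right edge of piece 2 and CARTPT at the lower right of piece 3. NRGN is highest in and around V1 and in bands at the edges of the pieces.

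Myelin genes formed the most abundant part of what was higher outside V1. Oligodendrocytes wrap axons in myelin and are packed in white matter, which the outline of V1 leaves out. How much white matter contributes to the values below was not tested. MBP, myelin basic protein, had levels of 79.9, 48.4, 108 and 68.1 in pieces 1 to 4 and of 29.6, 33.4 and 29.4 in the V1 regions, a ratio of 2.50 (2.47 to 2.54). ERMN, an oligodendrocyte cytoskeletal protein, was 3.13 times higher (2.86 to 3.43).

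Of the 8 oligodendrocyte genes tested, 7 were higher, among them MBP, MOG, MAG, CLDN11, ERMN and UGT8, and CNP missed the threshold at 1.93 times (1.54 to 2.45). The summed level of the list was 107, 69.2, 148 and 93.1 in pieces 1 to 4 and 38.6 to 46.5 over the V1 regions, so all 4 pieces exceeded every region. Within 500 µm of a V1 cell MBP was at 1.89 times and ERMN at 2.20 times the V1 level. PDGFRA, the gene of oligodendrocyte precursors that could be tested, was not called (ratio 1.30, 1.09 to 1.57).

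The tile at x 9 to 10 mm and y 2 to 3 mm of piece 2 had the highest level of 100 of the 425 higher genes (23.5%), against 11.6% of all genes tested. MBP reached 272 (262 to 281) there and ERMN 12.2 (10.2 to 14.4). It is the tile with the fewest cells, 218, and its median cell had 405.5 UMIs.

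A second group of 39 genes was led in UMIs by PARD3B, CD24 and VIM and held some genes of fibroblasts and of vessel walls. VIM, vimentin, had levels of 0.484, 0.391, 0.667 and 0.490 in pieces 1 to 4 and of 0.243, 0.253 and 0.175 in the V1 regions, a ratio of 2.19 (1.87 to 2.58). COL1A1, a fibrillar collagen of fibroblasts, was 4.23 times higher (2.95 to 6.30), and TAGLN and MYH11, contractile proteins of smooth muscle, were 2.55 and 2.57 times higher.

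The group was highest in tiles at the edge of the tissue. VIM reached 6.12 and COL1A1 3.03 in the tile at x 1 to 2 mm and y 8 to 9 mm of piece 3, and FN1, fibronectin, reached 3.45 in the tile at x 5 to 6 mm and y 5 to 6 mm of piece 2, which held 271 cells. The feature ENSMODG00000038827, for which the deposited table gives no symbol, belonged to the same group, with 14.4 outside and 3.64 inside and 313 in the first of these tiles. By contrast FLT1 of endothelial cells and RGS5 of pericytes, which mark capillaries, were not called, with ratios of 1.40 and 1.13. The meningeal list had 2 of 4 tested genes higher and the vascular list 2 of 6.

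PROX1 and C1QL2, from the list for the dentate gyrus of the hippocampus, had compact peaks, PROX1 in pieces 1, 2 and 4 and C1QL2 in pieces 1 and 2. A group of 36 genes led by ZBTB20, SLIT3 and GRM8 also held PROX1, the homeobox factor of dentate granule cells. ZBTB20, a zinc finger factor of the hippocampus, had 1.21, 2.25, 1.40 and 1.48 in pieces 1 to 4 and 0.894, 0.588 and 0.575 in the V1 regions, a ratio of 2.22 (2.03 to 2.43). PROX1 reached 1.37 in the tile at x 8 to 9 mm and y 4 to 5 mm of piece 2, 1.20 in the tile at x 4 to 5 mm and y 2 to 3 mm of piece 1 and 1.20 in the tile at x 8 to 9 mm and y 9 to 10 mm of piece 4, but only 0.181 in any tile of piece 3. C1QL2, a secreted protein of dentate granule cells, was not called over the whole tissue (ratio 1.80, 1.57 to 2.07), yet reached 7.12 and 6.07 in the same tiles of pieces 1 and 2 against a median over tiles of 0.310. Of 4 dentate genes tested 1 was higher (median log2 ratio 0.63), and of 5 hippocampal pyramidal genes 2 were higher. The summed level of the dentate list was 1.96, 3.24, 1.91 and 2.47 in pieces 1 to 4 and 1.57 to 1.87 over the V1 regions.

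Of the 8 tested genes of the astrocyte list, 1 was called higher. Genes off this list were not counted, among them NDRG2, which was 2.13 times higher outside V1 (2.08 to 2.19). GFAP, the intermediate filament of white matter and reactive astrocytes, had levels of 1.24, 2.39, 1.45 and 1.07 in pieces 1 to 4 and of 0.498, 0.616 and 0.619 in the V1 regions, a ratio of 2.76 (2.49 to 3.05), and it reached 16.0 in the tile at x 9 to 10 mm and y 6 to 7 mm of piece 2. The other 7 astrocyte genes tested had ratios from 0.776 for SLC1A2, the main glutamate transporter, to 1.75 for AQP4, the water channel of their endfeet. GFAP fell in a group of 20 genes with ZIC1, ZIC2 and FOXJ1, the master factor of motile cilia. ZIC1 and ZIC2, zinc finger factors of cerebellar granule cells and of the dorsal midline of the brain, were 4.29 and 2.69 times higher and reached 5.06 and 5.60 in the same tile as POU4F1. ZIC1 and ZIC2 made the cerebellar list 2 of 3 genes higher (median log2 ratio 1.43), with CBLN1 not called, and other genes of that list were close to 0, with 74 UMIs of GABRA6 and 1 of CBLN3 outside V1.

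Genes of some other places and cell types gave too few UMIs to be tested. TTR, the defining gene of the choroid plexus, had 156 UMIs outside and 2 inside, while the 2 genes of its list that could be tested, OTX2 and ENPP2, were both higher (12.0 and 2.49 times; median log2 ratio 2.45). The summed level of the choroid plexus list was 0.663 outside and 0.221 inside. The hypothalamic peptide, monoaminergic and blood lists had no gene with 1000 UMIs, and their summed levels outside were 0.0893, 0.215 and 0.0113. Striatal genes were not called, with 0 of 3, and microglial genes likewise, with 0 of 2.

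The genes lower outside V1 included markers of cortical excitatory neurons and genes tied to synaptic activity. NRGN, neurogranin, a postsynaptic calmodulin-binding protein of forebrain excitatory neurons, had levels of 17.4, 31.1, 7.57 and 12.5 in pieces 1 to 4 and of 46.7, 45.3 and 58.3 in the V1 regions, a ratio of 0.362 (0.357 to 0.366). HOMER1, a scaffold protein of the postsynapse, had 3.81, 7.47, 2.09 and 3.62 against 11.9, 12.4 and 10.7, a ratio of 0.358 (0.349 to 0.367). PAMR1, a secreted protein with a peptidase-like domain, had the smallest ratio, 0.248 (0.235 to 0.263), and was the only gene that was at least 4 times lower. All 10 genes with the smallest ratios were lower in every piece than in every V1 region, all 10 were highest in piece 2 among the pieces, and 9 were lowest in piece 3.

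Of 13 cortical glutamatergic genes tested, 6 were lower and none was higher (median log2 ratio −0.68). NEUROD6, a basic helix-loop-helix factor of cortical excitatory neurons, was at 0.847, 1.60, 0.359 and 0.535 in pieces 1 to 4 and at 2.43, 1.96 and 2.38 in the V1 regions, a ratio of 0.386. CUX2 of upper layers, RASGRF2 of layer 2/3, FEZF2 of layer 5 and TBR1 of layer 6 had ratios of 0.403, 0.463, 0.421 and 0.433. The other 7 were not called, among them FOXP2 and BCL11B, which subcortical neurons also use (ratios 1.19 and 1.23). The summed level of the list was 17.4 in piece 2, close to the 18.6 to 20.3 of the V1 regions, and 10.7, 8.11 and 10.7 in pieces 1, 3 and 4. Within 500 µm of a V1 cell it was 19.2, near the 19.5 inside V1, and farther away it was 10.6.

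GABAergic genes were divided. SST, somatostatin, and LHX6, the factor of cortical interneurons born in the medial ganglionic eminence, were lower, at 0.494 and 0.349 times V1. ADARB2, a marker of interneurons from the caudal ganglionic eminence, was higher at 3.21 times (2.62 to 3.97), with 0.861 in piece 4. GAD1, GAD2 and SLC32A1, which make or load GABA in every GABAergic neuron, were not called, with ratios of 0.936, 1.53 and 1.39. CCK and VIP were at 0.617 and 0.778.

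Immediate early genes, which neurons switch on within minutes of activity, were at or below 0.757 times V1 in each of the 5 that could be tested. EGR1, a zinc finger factor, had 7.27, 9.80, 3.38 and 5.91 in pieces 1 to 4 and 17.2, 17.9 and 21.2 in the V1 regions, a ratio of 0.364 (0.357 to 0.372). NPAS4 was lower as well, at 0.449, while FOS, FOSB and JUNB, at 0.757, 0.531 and 0.582, missed the threshold. EGR1 was also high in tissue outside V1, with 21.7 in the tile at x 1 to 2 mm and y 2 to 3 mm of piece 1 and 20.2 in the tile at x 6 to 7 mm and y 2 to 3 mm of piece 2, where NRGN reached 61.8 and 51.1.

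**Figure D4:**
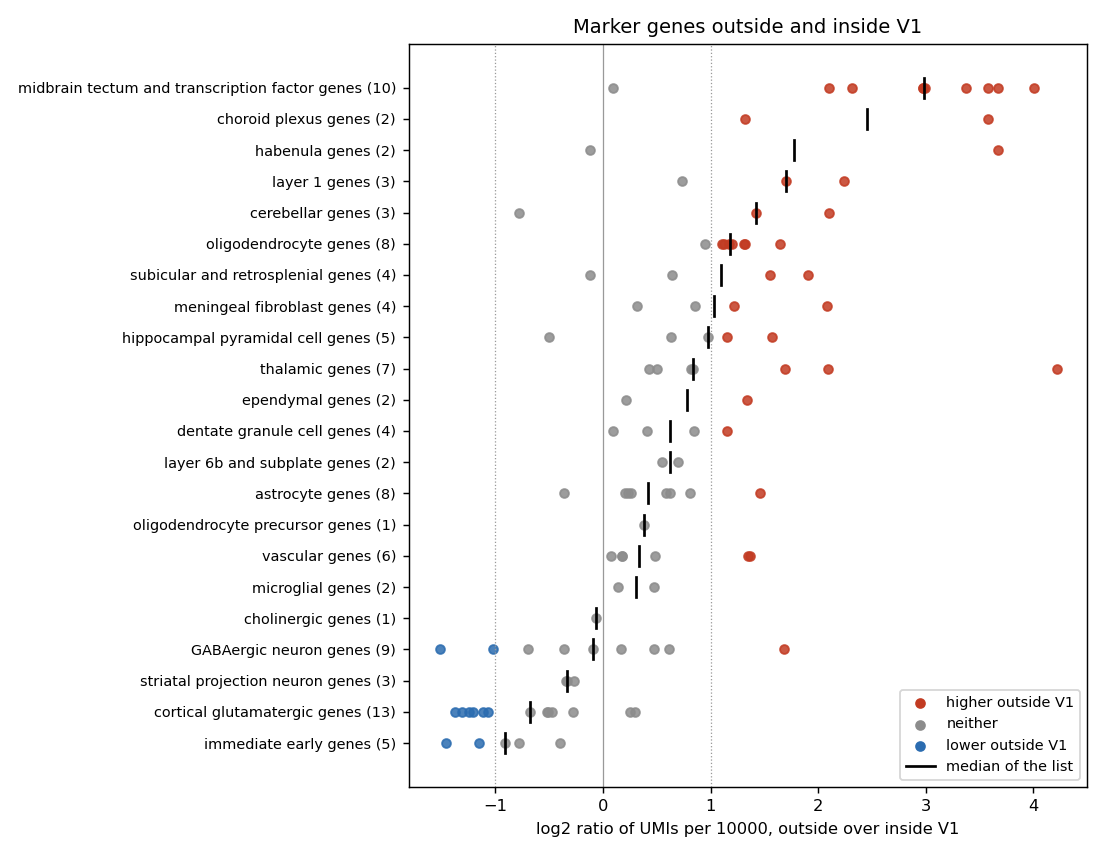
Log2 ratio of the level outside over the level inside V1 for the 104 list members with at least 1000 UMIs, with 1 row per list and the number of genes in brackets. Red points were called higher outside V1, blue points lower and grey points neither, and black bars are list medians; midbrain genes lie farthest right (median 2.99) and immediate early genes farthest left (−0.91).

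The lists of regions and cell types, read against the 4.28% of all genes called higher, were called as follows. Of 10 genes of the midbrain tectum and of its transcription factors, 9 were higher, all but MEIS2 (ratio 1.06), and the median log2 ratio was 2.99, against 0.06 over all genes. The lists for layer 1, subicular and retrosplenial cortex, ependyma and habenula had 2 of 3, 2 of 4, 1 of 2 and 1 of 2 genes higher. NDNF of layer 1 was 3.26 times higher, but CALB2 is on the layer 1 list and is also made by thalamic and midbrain neurons, and RELN was not called (1.66). These lists were chosen for regions that the block could hold and with earlier results of these data known. Their counts are therefore descriptions and no independent support. Several genes stand in the list of 1 region while being used by others.

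Distance from the V1 regions was compared next, and the near tissue may hold V1 that was not outlined. Tissue within 500 µm of a V1 cell held 8789 cells and tissue farther away 65742, so the genes were chosen on tissue that is mostly far and their high counts there follow from the choice. The 425 higher genes had a median ratio of 1.60 in the near tissue and 2.56 in the far tissue, and 98 of them were at 2 times V1 or more near V1 against 424 far from it. Over all 9939 genes tested, 117 were at 2 times V1 or more near V1 and 472 far from it, and 1 and 169 were at 0.5 times or less. The number at 2 times V1 or more was 156 when near tissue was taken within 250 µm and 57 within 1000 µm. The 111 lower genes had median ratios of 0.745 near and 0.379 far, with 0 at 0.5 times V1 or less near V1 and 111 far from it.

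The 25 genes with the largest ratios had near ratios from 0.570 for SHOX2 to 3.36 for TMCC3, and only 3 of them reached 2. The SHOX2 value rests on only 4 UMIs near V1 and 5 inside it. Of the 425 higher genes, 17 were higher near V1 than far from it. SLC13A4 and SLC22A8, solute carriers of the meninges and choroid plexus, were at 7.62 and 4.31 times V1 near it and at 3.79 and 3.38 times far from it, FN1 at 5.61 and 3.48, FOXJ1 at 3.54 and 2.39, and GFAP at 3.00 and 2.72. The V1 outline leaves out the pial surface and the white matter, both of which lie next to it. Whether the UMIs of these genes near V1 come from there was not tested. Of the 111 lower genes, 9 were above the V1 level in the near tissue, among them FEZF2 at 1.26 and TBR1 at 1.20 times, while far from V1 they were at 0.301 and 0.324 times.

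**Figure D5:**
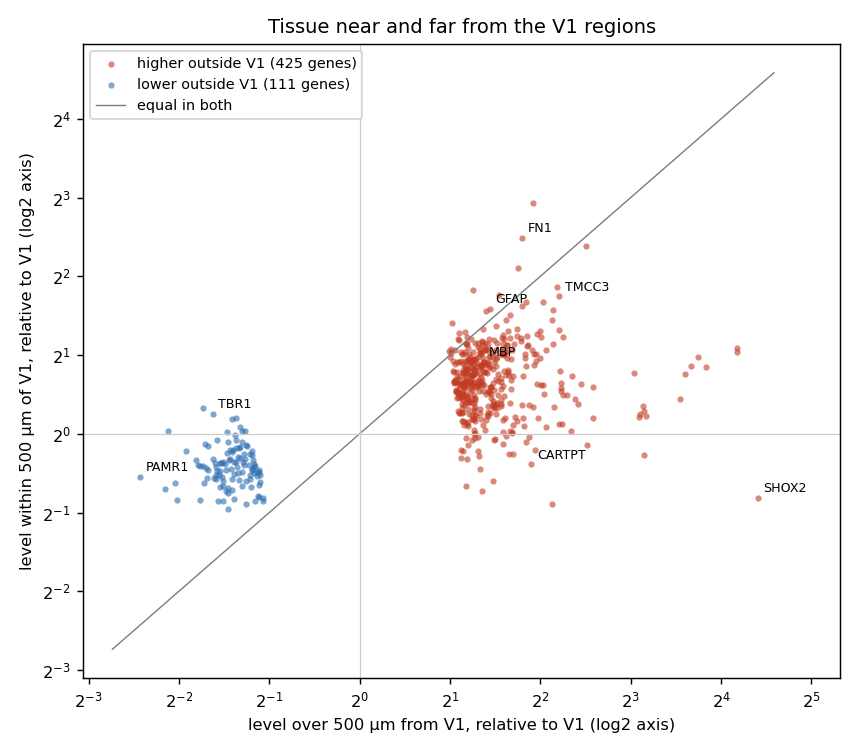
Level relative to V1 in tissue over 500 µm from a V1 cell (x axis) and within 500 µm of one (y axis), both on log2 axes, for the 425 higher and 111 lower genes. Most higher genes lie below the line of equality and all lower genes above it. SHOX2 was at 0.570 times the V1 level near V1 (only 4 UMIs there and 5 inside V1) and at 21.2 times far from it.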

How the data were processed

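Reads were processed by the authors in the vendor's workflow, with the tissue image aligned by hand and with gene models lengthened at their 3′ ends, and they deposited UMI counts per gene and segmented cell without normalization, with positions (2 spatial units per µm) and V1 region labels. UMIs can spread from a cell to its neighbours, and longer 3′ ends can move UMIs between neighbouring genes.

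Counts were summed over cells outside and inside V1 with Python 3.11.15, numpy 2.4.6, scipy 1.17.1 and pandas 2.3.3, and plotted with matplotlib 3.10.9. Levels have exact Poisson intervals and ratios exact Clopper-Pearson intervals at 95%. Pieces are connected squares of 200 µm; 1 stray cell outside them stays in the sums. A tile takes the piece of most of its cells, and 1400 cells lay in tiles under 200 cells. Profiles, as log2 of the level plus 0.01, were cut into 8 groups by average linkage on correlation. The ratio was tested on simulated data.

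Named genes are the 25 largest and 10 smallest ratios with a symbol, the 3 genes with most UMIs in each group, and list members; other genes were chosen after their values were seen, and a few named by the rule are not reported here. Members and lists were chosen with earlier results of these data known. Of 30613 features, 11598 carry a symbol. Alternatives covered the filters, the fold, thinning to 300 UMIs, the mean over cells, left-out regions and pieces, tiles and groups. The mouse section was not used here.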

Additional observations from a re-analysis of the deposited data

How the results depend on the processing

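No paired analysis was possible because the comparison lies within 1 section of 1 animal. The count of higher genes stayed between 301 and 554 and that of lower genes between 97 and 145 under the alternatives not named here. Requiring 200 UMIs per gene gave 1028 higher and 181 lower genes and requiring 5000 gave 93 and 55. Other numbers of genes than 9939 were tested in these settings, so these counts cannot be set beside the shares of 4.28% and 1.12%. A fold of 1.5 gave 1080 and 464, and a fold of 4 gave 41 and 1. Lower genes numbered 168 in tissue over 500 µm from V1 alone and 48 (46 of them among the 111) in the pieces that hold a V1 region, and, in alternatives chosen after seeing the data, 256 without piece 2 and 61 without piece 3. In the V1 pieces alone 292 of the 425 higher genes were still called. Higher genes whose highest tile lay in a piece with no V1 region numbered 160 of 425 with 1 mm tiles (over all 9939 genes tested, 1069 in piece 3 and 1610 in piece 4), 295 with 2 mm tiles, 287 with the grid moved by 0.5 mm and 268 with at least 500 cells per tile (chosen after seeing the data), so the tile of a single gene, above all in tiles of few cells, depends on the grid. Higher genes at 2 times V1 or more beside V1 numbered 98 within 500 µm, 156 within 250 µm and 57 within 1000 µm. The number of lists with a median log2 ratio of 1 or more was 8, and 6 to 10 under the alternatives. Of 490 ratios of the 35 genes with extreme ratios over these alternatives, 405 stayed in the interval given, 85 left it and none changed sign. Depth limits the genes with few UMIs in V1, and 8834 cells outside V1 but 156 inside had under 300 UMIs.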

Other observations

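Some list genes that were not called over the whole tissue still had compact peaks. WFS1, a protein of the endoplasmic reticulum that marks hippocampal CA1 neurons in rodents, had a ratio of 1.97 (1.68 to 2.33), and it reached 6.62 (5.91 to 7.38) UMIs per 10000 in the tile at x 1 to 2 mm and y 8 to 9 mm of piece 3 against a median over tiles of 0.280. GRIK4, a kainate receptor subunit of CA3 neurons, reached 7.54 in the tile at x 8 to 9 mm and y 2 to 3 mm of piece 2 against a median of 2.09. NTS, neurotensin, was at 3.19 times the V1 level within 500 µm of V1 and at 1.33 times farther away, and reached 3.07 in the tile at x 3 to 4 mm and y 1 to 2 mm of piece 1. PPP1R1B, known as DARPP-32 and a marker of striatal projection neurons, reached 4.52 in the tile at x 9 to 10 mm and y 5 to 6 mm of piece 2, where SYT9 and POU4F1 peaked, against a median of 0.432. DGKG, a diacylglycerol kinase in a group of 3 genes with COL12A1, was 2.12 times higher outside V1 and reached 2.67 in the tile at x 8 to 9 mm and y 2 to 3 mm of piece 2 against a median of 0.153.

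Of the 425 higher genes 106 carry no symbol, and of the 111 lower genes 26. ENSMODG00000048042 was higher, with 10.7 outside and 4.08 inside, and ENSMODG00000014103 and ENSMODG00000003051 were lower, with 1.90 and 1.43 outside and 3.87 and 3.30 inside.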
